A study of Mus musculus with 16 samples.

Results

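The ileal transcriptome of mice fed ethanol (EtOH) was compared with that of pair-fed (PF) mice among 11 of the 16 libraries of the study, those that held the ileal bile acid transporter Slc10a2 above 20 CPM and the colonic carbonic anhydrase Car1 below 1000 CPM. CPM values are read counts relative to library size, which was scaled by the trimmed mean of M-values (TMM). RNA of terminal ileum, taken as bulk tissue, was sequenced from male C57BL/6 mice that were 8 to 10 weeks old at the start, with 1 library per mouse. All mice received a Lieber-DeCarli liquid diet for 6 weeks. In the EtOH groups its ethanol content was raised in steps to 6%, which was kept for 3 weeks, and PF mice received the same calories with maltose dextrin in place of ethanol. Both diets were given to wild-type (WT) mice and to fat-1 littermates (Fat1+/-), which carry 1 copy of a C. elegans n3 fatty acid desaturase gene that is active in all tissues and converts n6 to n3 polyunsaturated fatty acids. The rule kept WT PF replicates 1 to 4, fat-1 PF replicates 1 and 3, WT EtOH replicates 1 and 3, and fat-1 EtOH replicates 1, 2 and 5, so that 6 PF were set against 5 EtOH libraries with genotype in the model. It left out fat-1 PF replicates 2 and 4, WT EtOH replicate 2 and fat-1 EtOH replicates 3 and 4.

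The libraries were selected on the measured values of Slc10a2 and Car1, which are given without a test. Slc10a2 lay between 475 and 1277 CPM in the kept PF libraries and between 936 and 1386 CPM in the kept EtOH libraries, while the closest library below the limit held 7.49 CPM. Car1 lay between 0 and 58.7 CPM in the kept PF libraries and between 0.902 and 79.1 CPM in the kept EtOH libraries, and the closest library above the limit held 4062 CPM. The plot of both values shows a wide empty space on either side of each limit.

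**Figure D1:**
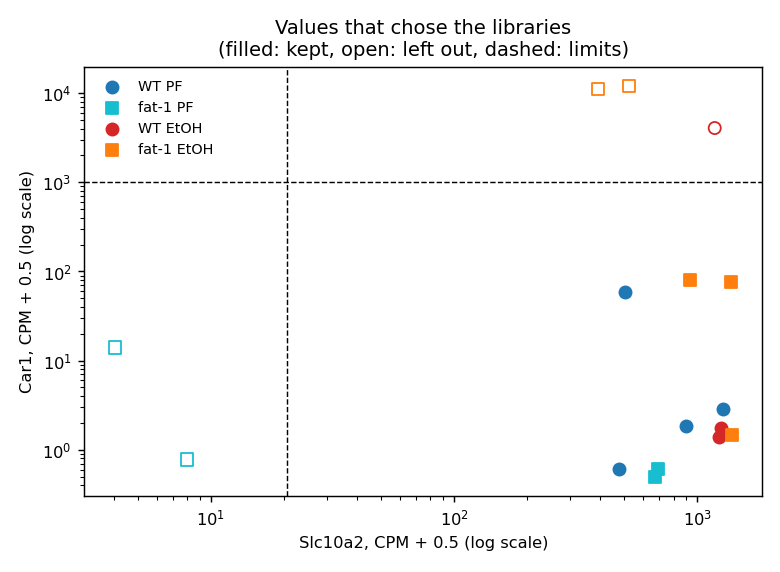
Level of Slc10a2 (x axis) and Car1 (y axis), both as CPM + 0.5 on log scales, with 1 point per library and dashed lines at the limits of 20 and 1000 CPM. The 11 filled points are the libraries kept, with Slc10a2 at 475 CPM or more and Car1 at 79.1 CPM or less, and the 5 open points are those left out.

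Several measures moved with diet across the kept libraries. Counted reads ran from 8473552 to 10064410 in the PF and from 10111205 to 11438539 in the EtOH libraries, so that the diets did not overlap in depth, and the part of depth in the results was not tested. Library numbers run from 1 to 8 for PF and from 9 to 16 for EtOH mice, so that order and diet cannot be told apart. The name ileal held for Slc10a2, but genes of the proximal small intestine went against it in the PF libraries. There Lct, the brush border lactase, reached 78.6 to 1196 CPM against 0.171 to 2.31 CPM in the EtOH libraries. The score of a list of 19 proximal genes, the mean of log2(CPM + 0.5), lay at 4.35 in WT PF replicate 4, between 6.09 and 7.02 in the other PF libraries and between 2.06 and 2.70 in the EtOH libraries. This score and the diet cannot be told apart in these libraries, and the libraries are therefore called kept rather than ileal below. On the first component of all genes tested, which held 46.4% of the variance, WT PF replicate 4 lay at 6.47, the other PF libraries between -40.7 and -24.0 and the EtOH libraries between 18.7 and 57.7. On the second, with 18%, fat-1 EtOH replicate 5 lay at 46.7 and the other EtOH libraries between -32.1 and -14.0.

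The small intestine changes along its length. Its proximal part digests lactose, absorbs most fat, folate and iron and expresses the transcription factor GATA4, whereas the ileum recovers bile acids through SLC10A2 and signals their return to the liver through FGF15. Hox genes are used in order along the gut, so that those at one end of each cluster mark its distal parts. Ethanol is absorbed mainly in the upper intestine and is oxidised by alcohol and aldehyde dehydrogenases, some of which also act on retinoids.

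Of 13716 genes tested, 3945 (28.8%) had an adjusted p-value of 0.05 or less in edgeR's quasi-likelihood test and are called higher or lower below. With EtOH 1843 genes (13.4%) were higher and 2102 (15.3%) lower. A change of at least 2-fold was found for 224 of the higher (1.63%) and 268 of the lower genes (1.95%), together 492 (3.59%). The values of the diets did not overlap at all for 880 genes that were higher (6.42%) and 1081 that were lower with EtOH (7.88%). Over all genes tested, the median log2 fold change (EtOH over PF) was 0.05. Without the library that weighed most, fat-1 PF replicate 3, 2598 genes were called, and with upper-quartile scaling 61.3% of the calls were higher in place of 46.7%. With the score of the 19 proximal genes as a covariate, chosen after these results were seen, 0 of 13716 genes were called in edgeR's test and 588 (4.29%) had an unadjusted p-value under 0.05. The median standard error rose from 0.130 to 0.420 in that fit, and 1328 of the 3945 genes changed sign. In bulk tissue, fewer cells of a type and less RNA per cell cannot be told apart.

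Genes of the proximal small intestine had the largest median change of the 51 gene lists examined. The lists were chosen with earlier results of these data known. Members such as Lct, Gata4, Plb1, Ugt2a3 and Fabp1 are among the largest falls the paper reports from this study. The rank and counts of this list therefore partly restate that choice. All 19 members that passed the filter on low counts, of 20 in the list, were lower with EtOH (against 15.3% of all genes). The median log2 fold change was -4.12, and for 15 of the 19 the diets did not overlap (against 7.88% of all genes). The median was -4.18 in WT and -4.64 in fat-1 mice. The count stayed between 17 and 20 when any 1 library was left out. The lists were described by counts and medians only, and a gene held by more than 1 list is counted under each.

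Lct (ENSMUSG00000026354, chromosome 1 from 128284756 to 128328318) was at 78.6 to 1196 CPM (median 650.5) in the PF libraries. With EtOH it was at 0.271, 0.425, 0.571, 2.31 and 0.171 CPM in WT replicates 1 and 3 and fat-1 replicates 1, 2 and 5, the order used for all EtOH values below. The lowest PF value was that of WT PF replicate 4. Like Plb1, Fam151a and Fabp1, Lct is 1 of the 12 largest falls, which were chosen among genes whose diets did not overlap, so that their separation restates the choice. The log2 fold change was -9.85 ± 0.83 (SE), with an adjusted p-value of 0.000103 in edgeR's test, and -10.85 without fat-1 EtOH replicate 2. Plb1, a brush border phospholipase (chromosome 5 from 32232708 to 32366520), was at 310.5 to 902 CPM (median 590) in PF and at 1.53, 6.28, 4.57, 5.74 and 3.42 CPM in EtOH libraries, a log2 fold change of -7.17 ± 0.48 (edgeR adjusted p = 2.81e-05). Fam151a (chromosome 4 from 106733889 to 106748292) fell from a PF median of 159.9 CPM (range 50 to 260.1) to 0.812, 0.425, 0.667, 1.46 and 0.941 CPM (edgeR: -7.58 ± 0.56, adjusted p = 4.55e-05). With strand ignored, 52.6% of its 75-base transcript stretches occur in the antisense gene Acot11, and whether the counting used strand is not stated. Fabp1, the liver-type fatty acid binding protein of enterocytes, was at 33.1 to 1858 CPM (median 718) in PF and at 11.5, 10.1, 13.1, 8.23 and 15.6 CPM in EtOH libraries. Its PF values spread widely and reached down to 33.1 CPM in WT PF replicate 4. The fall of Fabp1 came to -6.33 ± 0.83 on the log2 scale (edgeR adjusted p = 0.000723).

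Among the other genes with the largest falls, Ugt2a3, a glucuronosyltransferase, was at 13.5 to 98.7 CPM in PF and 0.381 to 1.8 CPM in EtOH libraries (-6.38 ± 0.58, edgeR adjusted p = 0.000179). Slc23a1, a vitamin C transporter, was at 3.76 to 107 CPM and 0.255 to 1.14 CPM (-6.79 ± 0.84, edgeR adjusted p = 0.000567). Gimd1, a predicted GTPase of the GIMAP type, had 16.2 to 125 CPM against 1.26 to 3.26 CPM (-5.46 ± 0.53, edgeR adjusted p = 0.000248). For each of these 3 genes the lowest PF value was that of WT PF replicate 4. Dnase1, a secreted nuclease, showed the same order, with 13 to 183 CPM in PF and 1.17 to 2.97 CPM in EtOH libraries (-5.49 ± 0.71, edgeR adjusted p = 0.000723). A pair of genes was close to absent with EtOH, so that ratios of summed counts are given in place of fitted folds. Sult6b2, a sulfotransferase, had 2 counts in the 5 EtOH and 755 in the 6 PF libraries, a PF over EtOH ratio of 401 with an exact 95% interval of 111 to 3319. Mbl2, a mannose-binding lectin, had 3 and 442 counts and a ratio of 157 (53.2 to 762). Both intervals cover counting error only. Leaving out fat-1 PF replicate 1, which held most Sult6b2 counts, took its fitted log2 fold change from -8.72 to -5.17. Its adjusted p-value was then 0.058 in edgeR's test.

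**Figure D2:**
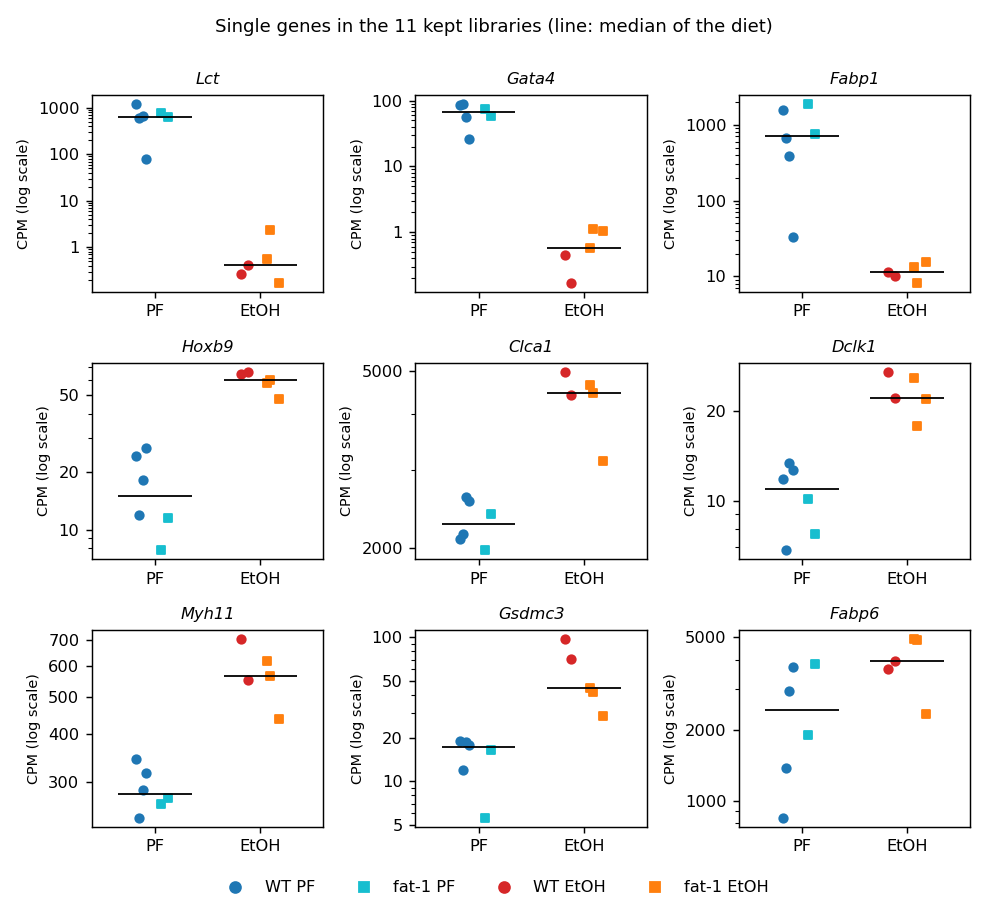
CPM (log scale) of 9 genes in the 11 kept libraries, with 1 point per library, colour and shape for the group and a line at the median of each diet. The diets overlap for Fabp6, and 1 WT PF library, replicate 4, lies below the other PF libraries for Lct, Gata4 and Fabp1.

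GATA4 binds DNA at sites with the core GATA, and the letters TGATAA or AGATAA, on either strand, were counted in RefSeq promoters (250 bases before to 50 after the gene start, GRCm38.p6). They were found for 7 of 10 genes among the 12 largest falls (9 of 14 promoters, 64.3%), for 4 of 6 genes among the 12 largest rises (5 of 7 promoters, 71.4%), and in 11.1% of 13791 promoters of all genes tested. Promoters of 1 gene can overlap, as those of Dnase1 and Gimd1 do. The HNF1 and DR1 motifs, searched likewise, were found in 0 promoters of either set of 12 and in 0.0435% of those of genes tested. TGATAA and AGATAA share the letters GATAA, and of all 32851 promoters 18.6% hold one of them. Among genes that changed at least 2-fold, they stood in 21.5% of 275 promoters of lower and 14.3% of 203 promoters of higher genes. The 250 bases upstream of 3 genes that fell and 2 that rose are shown because they carry these letters on both sides of the comparison, written 5′ to 3′ on the strand of the gene with the matched letters in capitals. They lie at chr1:128328319-128328568 (minus strand) for Lct, chr5:87337196-87337445 (minus) for Ugt2a3, chr4:106733665-106733914 (plus) for Fam151a, chr15:63878559-63878808 (minus) for Gsdmc3 and chr11:96281655-96281904 (plus) for Hoxb8. The last bases shown for Fam151a lie inside its GENCODE gene model. A match describes letters only and is not a site.
Lct: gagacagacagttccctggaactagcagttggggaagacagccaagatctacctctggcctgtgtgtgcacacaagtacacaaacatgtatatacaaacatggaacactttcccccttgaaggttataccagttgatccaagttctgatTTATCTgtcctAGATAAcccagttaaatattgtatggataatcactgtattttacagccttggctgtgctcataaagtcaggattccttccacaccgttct
Ugt2a3: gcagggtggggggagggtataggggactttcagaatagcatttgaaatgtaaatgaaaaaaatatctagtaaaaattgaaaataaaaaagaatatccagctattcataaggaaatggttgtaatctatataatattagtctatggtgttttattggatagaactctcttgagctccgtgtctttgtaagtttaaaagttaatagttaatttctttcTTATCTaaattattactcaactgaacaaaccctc
Fam151a: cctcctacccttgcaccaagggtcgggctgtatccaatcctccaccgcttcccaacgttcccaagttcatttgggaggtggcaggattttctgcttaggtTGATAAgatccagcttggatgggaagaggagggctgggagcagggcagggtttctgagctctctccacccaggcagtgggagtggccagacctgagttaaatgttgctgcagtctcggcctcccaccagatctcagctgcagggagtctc
Gsdmc3: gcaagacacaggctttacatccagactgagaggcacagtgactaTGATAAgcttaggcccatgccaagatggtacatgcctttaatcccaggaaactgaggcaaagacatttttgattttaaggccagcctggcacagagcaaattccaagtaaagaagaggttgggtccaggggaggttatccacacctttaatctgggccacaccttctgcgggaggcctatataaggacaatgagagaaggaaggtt
Hoxb8: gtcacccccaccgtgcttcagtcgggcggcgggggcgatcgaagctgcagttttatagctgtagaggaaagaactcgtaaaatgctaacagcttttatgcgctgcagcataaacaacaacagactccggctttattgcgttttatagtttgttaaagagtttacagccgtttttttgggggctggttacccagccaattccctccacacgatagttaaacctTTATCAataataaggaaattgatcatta

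Among transcription factors that set position along the gut, Gata4, which specifies jejunal as opposed to ileal enterocytes, fell most and is 1 of the 12 largest falls. Gata4 (ENSMUSG00000021944, chromosome 14 from 63198922 to 63271692) was at 25.7 to 88.1 CPM (median 67.1) in PF and at 0.451, 0.17, 0.571, 1.11 and 1.03 CPM in EtOH libraries. No EtOH library exceeded 1.11 CPM. Its log2 fold change was -6.65 ± 0.44 (edgeR adjusted p = 2.81e-05). Gata6, a factor of the same family used along the whole small intestine, fell much less, from a PF median of 76.7 CPM (range 68.1 to 94.7) to 57, 59.5, 53.7, 56.1 and 44.3 CPM (-0.52 ± 0.10, edgeR adjusted p = 0.00408). Creb3l3, a factor of enterocyte lipid metabolism, fell from a PF median of 491 CPM (range 247 to 557) to 118, 95.9, 125, 123 and 84.1 CPM (-2.11 ± 0.21, edgeR adjusted p = 0.000271). In all, 7 of 22 tested regional transcription factors were lower and 2 higher (40.9% called, against 28.8% of all genes), with a median log2 fold change of -0.15. Meis2, a homeobox factor, was higher (0.67 ± 0.16, edgeR adjusted p = 0.00997), and its values did not overlap between the diets. The caudal factors Cdx1 and Cdx2, and Hnf4a, did not pass the test (-0.16, -0.27 and -0.06), though Cdx2 did without fat-1 PF replicate 1, at -0.38.

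Most digestive enzymes of the brush border were lower with EtOH. Of 20 tested members, which include Lct and Plb1, 13 were lower and none higher in edgeR's test (65% called, against 28.8% of all genes). The median log2 fold change was -0.76. Enpp7, the alkaline sphingomyelinase, fell from a PF median of 835 CPM (range 306 to 1145) to 34.6, 29, 49, 42.5 and 44.8 CPM with no overlap (-4.39 ± 0.34, edgeR adjusted p = 5.82e-05). Asah2, a neutral ceramidase that acts after it on sphingolipids, fell from a PF median of 788 CPM (range 233 to 964) to 121, 101, 64.9, 85.5 and 88.8 CPM (-2.90 ± 0.31, edgeR adjusted p = 0.000359). Each was lowest among the PF libraries in WT PF replicate 4, at 306 and 233 CPM. Mme, the peptidase neprilysin, had 289 to 1101 CPM in PF and 103 to 259 CPM in EtOH libraries (-2.11 ± 0.35, edgeR adjusted p = 0.0019). The disaccharidase genes Sis and Treh changed by -1.19 and -1.23, and the aminopeptidase Anpep and the peptidase Dpp4, at 0.07 and -0.25, did not pass, though Dpp4 did without WT PF replicate 4, at -0.29.

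Sugar uptake and fructose metabolism moved the same way, with 14 of 17 members lower and none higher (82.4% called, against 28.8% of all genes). The median log2 fold change was -1.06. Khk, the ketohexokinase that opens fructose breakdown, was at 173 to 433 CPM (median 369) in PF and 109, 102, 126, 154 and 99.1 CPM in EtOH libraries (-1.63 ± 0.22, edgeR adjusted p = 0.000729). Slc2a5, the apical fructose transporter, fell from a PF median of 199 CPM (range 90.3 to 234) to 67.8, 70.2, 58.4, 81.9 and 60.5 CPM (-1.43 ± 0.22, edgeR adjusted p = 0.00123). Neither gene overlapped between the diets. G6pc, the glucose-6-phosphatase of gluconeogenesis, had 9.91 to 69.1 CPM against 1.71 to 8.92 CPM (-2.84 ± 0.41, edgeR adjusted p = 0.000964). Slc2a2, the basolateral glucose transporter, fell by 4.53 ± 0.77 on the log2 scale (edgeR adjusted p = 0.00203), but its highest EtOH value, 54.0 CPM in fat-1 replicate 2, lay above the 52.2 CPM of WT PF replicate 4. Without that EtOH library the value was -5.26.

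Fat absorption and chylomicron assembly followed. Of 25 tested members, 17 were lower and 2 higher (76% called, against 28.8% of all genes), with a median log2 fold change of -0.75. For 16 of the lower genes the diets did not overlap (against 7.88% of all genes). Apoa4, an apolipoprotein of chylomicrons, was at 1708 to 11604 CPM (median 7588) in PF and at 329.7, 289, 398, 273 and 414 CPM in EtOH libraries (-4.55 ± 0.42, edgeR adjusted p = 0.000181), and 56.1% of its stretches occur in antisense genes when strand is ignored. Mttp, the microsomal transfer protein that loads lipid onto apolipoprotein B, was at 1142 to 2803 CPM (median 2006) and at 715, 779, 736, 796 and 691 CPM (-1.46 ± 0.18, edgeR adjusted p = 0.00044). Fabp2, the intestinal fatty acid binding protein, fell from a PF median of 10039 CPM (range 4344 to 13572) to 2963, 2108, 2480.1, 2954 and 1879.6 CPM (-1.96 ± 0.26, edgeR adjusted p = 0.000723). In each case WT PF replicate 4 was the PF library next to the EtOH range without entering it. Dgat1, which makes triglycerides, and Apoa1, the main protein of high density lipoprotein, fell less, by 1.11 ± 0.15 and 1.36 ± 0.20 on the log2 scale (edgeR adjusted p = 0.000643 and 0.000921). The score of the list was 7.78 in WT PF replicate 4, 8.29 to 8.60 in the other PF and 7.16 to 7.37 in the EtOH libraries.

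Fatty acid oxidation and targets of the receptor PPAR alpha counted 16 lower and 1 higher of 31 members. This was a share of 54.8%, against 28.8% of all genes, with a median log2 fold change of -0.36. Acot12, an acetyl-CoA thioesterase, fell most, from a PF median of 29.7 CPM (range 4.49 to 47.1) to 0.18, 1.36, 1.05, 0.686 and 0.77 CPM (-5.25 ± 0.61, edgeR adjusted p = 0.000439). Hadh, a dehydrogenase of mitochondrial beta oxidation, fell from a PF median of 702 CPM (range 466.2 to 893) to 375, 432, 397, 473 and 338 CPM and overlapped at the edge (-0.79 ± 0.15, edgeR adjusted p = 0.00345). Acaa1b, a peroxisomal thiolase, was lower in the kept libraries (-1.76 ± 0.40, edgeR adjusted p = 0.00853) but turned positive, at 1.14, when all 16 libraries were compared, and 24.4% of its 75-base stretches also occur in Acaa1a. Synthesis and desaturation of fatty acids went the other way, with 6 of 18 members higher and none lower in edgeR's test (median 0.60), a share of 33.3% beside 28.8% of all genes. Fa2h, which hydroxylates fatty acids of sphingolipids, rose from a PF median of 2.24 CPM (range 0.422 to 4.38) to 9.65, 10.7, 5.14, 12.1 and 5.9 CPM (2.16 ± 0.39, edgeR adjusted p = 0.00259). Acly, which supplies cytosolic acetyl-CoA, rose from a PF median of 98.2 CPM (range 76.2 to 127) to 200.4, 151, 136, 144 and 128 CPM (0.66 ± 0.13, edgeR adjusted p = 0.00341), and Fads2, the delta-6 desaturase, had 30.2 to 53.4 CPM and 50.3 to 75.7 CPM (0.63 ± 0.13, edgeR adjusted p = 0.00531). The EtOH values of Fads2 overlapped those of WT PF replicate 4. The list's score in that library, 5.96, lay inside the EtOH range of 5.62 to 6.30, above the 5.12 to 5.45 of the other PF libraries.

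Of 29 cholesterol genes 13.8% were called, beside 28.8% of all genes. Of them 4 were lower and none was higher in edgeR's test, with a median of 0.11, although limma's voom called 6 higher and 5 lower of the 29. Soat2, which esterifies cholesterol for chylomicrons, fell from a PF median of 244 CPM (range 133 to 300) to 94.1, 82.7, 87.3, 91 and 97.3 CPM (-1.43 ± 0.18, edgeR adjusted p = 0.000596). Npc1l1, the cholesterol importer of the brush border, had 854 to 1159.9 CPM against 591 to 811 CPM (-0.53 ± 0.11, edgeR adjusted p = 0.00576). Of 9 tested receptors for fatty acids 1 was higher (11.1%, beside 28.8% of all genes), or 2 without WT EtOH replicate 3 (median 0.28). It was Ffar3, a receptor for short-chain fatty acids, with 0.422 to 1.53 CPM in PF and 1.7 to 2.48 CPM in EtOH libraries (1.35 ± 0.33, edgeR adjusted p = 0.00987).

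Enzymes that oxidise ethanol and acetaldehyde were lower where they passed the test. Of 15 tested members 8 were lower and none higher in edgeR's test (53.3% called, against 28.8% of all genes). The median log2 fold change was -0.35. Adh6a, an alcohol dehydrogenase also counted among the proximal genes, fell from a PF median of 275 CPM (range 62.1 to 397) to 21, 21.5, 24.9, 19.3 and 17.5 CPM (-3.67 ± 0.41, edgeR adjusted p = 0.000368). Adh1, the classical enzyme with high affinity for ethanol, was at 29.1 to 194 CPM (median 90.5) in PF and at 26.3, 27.6, 29.7, 27.4 and 24.7 CPM in EtOH libraries. Its EtOH values lay close together and met the PF range only at the 29.1 CPM of WT PF replicate 4 (-2.05 ± 0.39, edgeR adjusted p = 0.00322). Adh4 was low throughout, with 0.209 to 5.49 CPM in PF and 0 to 0.257 CPM in EtOH libraries, which held 166 and 5 counts in all (edgeR adjusted p = 0.00243). Aldh9a1, an aldehyde dehydrogenase, fell from a PF median of 553 CPM (range 455 to 620.5) to 387, 359, 382, 409.8 and 345 CPM with no overlap (-0.55 ± 0.09, edgeR adjusted p = 0.00161). Catalase (Cat) fell by 0.52 ± 0.10 on the log2 scale (edgeR adjusted p = 0.00357). Aldh2, the mitochondrial enzyme that removes acetaldehyde, changed by -0.07 and Cyp2e1, the ethanol-inducible cytochrome, by 0.48, and neither passed the test.

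Retinoid handling shares Adh1 and Adh4 with this list and had 8 lower and 1 higher of 23 tested genes (39.1%, against 28.8% of all genes), at a median of 0.01. Rbp2, the retinol carrier of enterocytes, fell from a PF median of 1397 CPM (range 289 to 2294) to 160.2, 119.7, 135, 152 and 128 CPM (-3.36 ± 0.41, edgeR adjusted p = 0.00052). Rdh7, a retinol dehydrogenase, had 20.6 to 73.5 CPM against 7.3 to 19.3 CPM (-2.45 ± 0.29, edgeR adjusted p = 0.00052). Bco2, which cleaves carotenoids, fell from a PF median of 87.2 CPM (range 40.8 to 96.2) to 34.9, 21.6, 34.7, 27.6 and 20 CPM (-1.52 ± 0.23, edgeR adjusted p = 0.00113). For each of them WT PF replicate 4 was the lowest PF library and lay above all EtOH libraries.

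**Figure D3:**
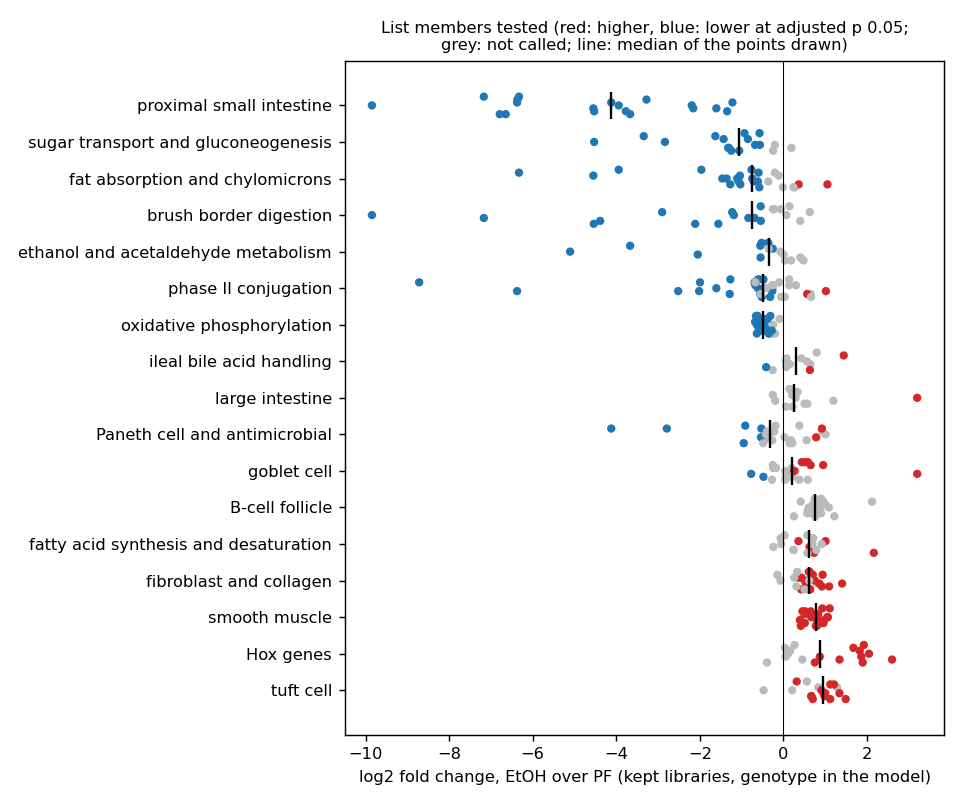
Log2 fold change, EtOH over PF, of the tested members of 17 gene lists in the kept libraries, with 1 point per gene. Red and blue points are members higher and lower at an adjusted p-value of 0.05, grey points were not called, and the line is the median of each list, which ran from -4.12 for proximal genes to 0.94 for tuft cell genes.

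Genes of xenobiotic metabolism were mostly lower where they passed the test. Of 25 tested cytochrome P450 genes 14 were lower and 2 higher (64% called), with a median of -0.75. Of 35 phase II conjugation genes 19 were lower and 2 higher (60% called), with a median of -0.48. Over all genes 28.8% were called. Nr1i3, the constitutive androstane receptor that controls many of these genes, fell from a PF median of 40.3 CPM (range 7.3 to 63.2) to 4.78, 2.21, 2.38, 3.26 and 2.05 CPM (-3.74 ± 0.49, edgeR adjusted p = 0.000723), and 58.1% of its stretches occur in the antisense gene Tomm40l when strand is ignored. Its target Cyp2b10 fell from a PF median of 71.8 CPM (range 9.91 to 116) to 1.08, 1.02, 0.571, 1.63 and 0.257 CPM (-6.37 ± 0.67, edgeR adjusted p = 0.000342). Cyp3a11, a broad drug oxidase, had 35.7 to 204 CPM against 5.56 to 28.5 CPM (-3.18 ± 0.47, edgeR adjusted p = 0.00105). Its relative Cyp3a44 moved the opposite way, from a PF median of 8.9 CPM (range 2.72 to 12.7) to 28.8, 19.1, 26.9, 50.9 and 16.1 CPM (1.63 ± 0.35, edgeR adjusted p = 0.00616), with 11% of its 75-base stretches shared with Cyp3a11 and other relatives. Cyp2c65 was lower in the kept libraries (-1.62 ± 0.29) but stood at 0.26 with all 16 libraries. Ephx2, the soluble epoxide hydrolase that acts on fatty acid epoxides, fell from a PF median of 231 CPM (range 95.7 to 374) to 70.3, 52.4, 61.4, 76.3 and 49.5 CPM (-2.02 ± 0.28, edgeR adjusted p = 0.000846).

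Antioxidant genes and targets of the factor NRF2 counted 13 lower and 1 higher of 30 (46.7% called, against 28.8% of all genes). Their median was -0.26. Gpx4, which reduces lipid peroxides, fell from a PF median of 160.3 CPM (range 106 to 197) to 84.8, 73, 81.3, 99.8 and 84.6 CPM (-0.98 ± 0.12, edgeR adjusted p = 0.000439). Of its 75-base stretches 29.8% also occur in Gpx4-ps2 or AC122253.3. Sod1, the cytosolic superoxide dismutase, fell from a PF median of 284 CPM (range 225 to 362) to 193, 189.5, 209, 222 and 211 CPM (-0.56 ± 0.09, edgeR adjusted p = 0.00113). Nfe2l2, which encodes NRF2, had 163 to 259.9 CPM against 118 to 176 CPM (-0.66 ± 0.13, edgeR adjusted p = 0.00396). Its ranges overlapped only through WT PF replicate 4, at 163 CPM. Among 30 genes of the unfolded protein response 3 were lower and 2 higher (median 0.01), a share of 16.7% beside 28.8% of all genes. Without fat-1 PF replicate 3, 2 were lower and none higher, and without WT PF replicate 2, WT EtOH replicate 3 or fat-1 EtOH replicate 2 the calls numbered 3. Atf4, a factor of the integrated stress response, fell from a PF median of 275 CPM (range 256 to 357) to 184, 179, 197, 210 and 191 CPM with no overlap (-0.66 ± 0.10, edgeR adjusted p = 0.000964).

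Nuclear-encoded subunits of oxidative phosphorylation were lower by small amounts. Of 30 members 26 were lower and none higher in edgeR's test (86.7% called, against 28.8% of all genes). All 30 had a negative log2 fold change, from -0.68 to -0.09, and the median was -0.49. Upper-quartile scaling left 23 of them lower, and leaving out any 1 library left 23 to 28. Cyc1, a subunit of complex III, fell from a PF median of 455 CPM (range 353 to 521) to 303, 288, 296, 298 and 279 CPM (-0.64 ± 0.10, edgeR adjusted p = 0.000964). Sdhd, of complex II, fell from a PF median of 472 CPM (range 307 to 497) to 284, 285, 291, 279 and 251 CPM (-0.68 ± 0.12, edgeR adjusted p = 0.00222). The score was 7.75 in WT PF replicate 4, 8.01 to 8.27 in the other PF and 7.54 to 7.74 in the EtOH libraries.

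Transporters of other nutrients fell more often than they rose. Of 26 amino acid and peptide transporters and related enzymes 12 were lower and 3 higher (57.7% called, median -0.20). Of 23 genes of vitamin and nucleoside transport 12 were lower and 1 higher (56.5% called, median -0.50). Over all genes 28.8% were called, with 15.3% lower and 13.4% higher. Slc36a1, a proton-coupled amino acid transporter, fell from a PF median of 185 CPM (range 60.6 to 329) to 41, 35.7, 37.9, 30.9 and 34.2 CPM (-2.32 ± 0.37, edgeR adjusted p = 0.00145). Slc1a1, an ileal glutamate transporter, rose from a PF median of 167 CPM (range 139.8 to 209.9) to 282, 270.4, 244, 247 and 206 CPM (0.58 ± 0.12, edgeR adjusted p = 0.00536), with WT PF replicate 4 at 209.9 CPM inside the EtOH range. Slc46a1, the proton-coupled folate transporter, fell from a PF median of 42.5 CPM (range 18.7 to 97.4) to 11.7, 12, 11.6, 16.6 and 9.75 CPM (-2.16 ± 0.33, edgeR adjusted p = 0.00124). Cubn, the ileal receptor for vitamin B12 bound to intrinsic factor, rose from a PF median of 547 CPM (range 336 to 786) to 1248, 1098, 1039, 1318 and 708 CPM (0.94 ± 0.22, edgeR adjusted p = 0.00901). The highest PF value of Cubn, in WT PF replicate 3, lay inside the EtOH range.

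The vitamin and nucleoside list also holds genes of adenosine metabolism and signalling. Nt5e, the ectonucleotidase CD73 that makes adenosine, was at 43.2 to 178 CPM (median 127) in PF and at 54.7, 34.8, 32.8, 35.1 and 43.4 CPM in EtOH libraries (-1.44 ± 0.31, edgeR adjusted p = 0.00583). Ada, which removes adenosine, was at 168 to 758 CPM (median 435) and at 149, 141, 151, 89.5 and 170.3 CPM (-1.64 ± 0.31, edgeR adjusted p = 0.00346). Adora2b, an adenosine receptor of the epithelium, was at 0.417 to 9.32 CPM (median 4.82) and at 0.271, 0.425, 0.0952, 0.343 and 0.513 CPM (-3.69 ± 0.66, edgeR adjusted p = 0.00259). All overlapped between the diets, in each case through WT PF replicate 4, whose values were 43.2, 168 and 0.417 CPM.

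Iron and metal genes were called at a share, 31.6%, near the 28.8% of all genes, with 5 lower and 1 higher of 19 (median 0.00). Among them was Mt1, a metallothionein, at 64.8 to 140.4 CPM (median 89.6) in PF and 48.6, 41.7, 45, 38.2 and 48 CPM in EtOH libraries (-1.02 ± 0.18, edgeR adjusted p = 0.00249). Ion and water transport counted 10 lower and 3 higher of 27 (48.1%, against 28.8% of all genes, median -0.21). Slc9a3, the apical sodium proton exchanger NHE3, fell from a PF median of 155 CPM (range 60.1 to 204) to 24.8, 35.8, 33.5, 13.8 and 29 CPM (-2.34 ± 0.33, edgeR adjusted p = 0.000884). Aqp3, a water and glycerol channel, fell from a PF median of 14.6 CPM (range 3.55 to 20.6) to 1.71, 0.679, 1.05, 1.71 and 0.77 CPM (-3.59 ± 0.45, edgeR adjusted p = 0.000573). Neither gene overlapped between the diets. Of 9 tested genes of calcium and phosphate absorption 3 were higher and 1 lower (44.4%, against 28.8% of all genes, median 0.22). Slc8a1, a sodium calcium exchanger, rose from a PF median of 2.01 CPM (range 1.62 to 3.4) to 5.95, 5.43, 4.48, 4.89 and 4.7 CPM (1.31 ± 0.19, edgeR adjusted p = 0.000918).

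Genes of ileal bile acid handling were called at a share, 25%, near the 28.8% of all genes. Apart from Slc10a2, 12 were tested, of which 2 were higher and 1 lower, with a median of 0.29. Fabp6, the ileal bile acid binding protein, was at 847 to 3851 CPM (median 2434) in PF and 3672, 3964, 4917, 4875 and 2343 CPM in EtOH libraries, and these ranges overlapped widely (0.64 ± 0.37, edgeR adjusted p = 0.206). The gene was called at 1.02 by limma's voom and at 1.25 by edgeR with a replicate block. Fgf15, the enterokine that bile acids induce, was at 0.739 to 74.1 CPM (median 12.3) and 109, 65.8, 27.3, 15.7 and 4.36 CPM (0.56 ± 1.10, edgeR adjusted p = 0.723). Its values spread over more than an order of magnitude within either diet. The log2 fold change of Fgf15 was 2.28 without fat-1 PF replicate 3 (edgeR adjusted p = 0.155), and limma's voom, which weights the libraries, gave 3.09 and called it (adjusted p = 0.0137). The called members were Gpbar1, Nr1h4 and Nr1i2, receptors that bile acids activate, at 1.44, 0.63 and -0.41. Leaving out fat-1 PF replicate 1 ended each of these calls in edgeR's test, with adjusted p-values of 0.0608, 0.0544 and 0.0569. Without WT EtOH replicate 3 or fat-1 PF replicate 3 only 1 call was left in each case, and Gpbar1 also lost its call without WT PF replicate 1 or 2 or WT EtOH replicate 1. The list's score was 5.50 in fat-1 EtOH replicate 5, 6.02 to 6.22 in the other EtOH and 5.31 to 5.98 in the PF libraries.

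Large intestine markers were called in 1 of 14 tested genes other than Car1 (7.14%, beside 28.8% of all genes). The count was 2 without fat-1 PF replicate 1 or fat-1 EtOH replicate 2 or 5. These markers had a median of 0.25, and their summed level was 1085 to 1411 CPM in PF and 1028 to 1484 CPM in EtOH libraries. The log2 fold change was positive for 12 of the 14 genes, and the list score, between 3.37 and 3.68 in PF and between 3.78 and 4.06 in EtOH libraries, did not overlap between the diets. The called gene was Retnlb, a goblet cell gene, at 0.211 to 1.86 CPM (median 0.622) in PF and 8.48, 8.75, 5.91, 1.2 and 6.5 CPM in EtOH libraries. It stood apart in 4 EtOH libraries and reached into the PF range in fat-1 replicate 2 (3.20 ± 0.51, edgeR adjusted p = 0.00158).

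Hox genes were higher with EtOH as far as they passed the test. Of 17 tested members, of 35 in the list, 10 were higher and none lower in edgeR's test. This was a share of 58.8%, against 28.8% of all genes, with a median log2 fold change of 0.87. When any 1 library was left out, 8 to 10 were called. In the B cluster on chromosome 11, 7 of 8 tested genes were higher, against 0 of 3 in the A, 2 of 5 in the C and 1 of 1 in the D cluster. Hoxd8, the tested D gene, lost its call when any 1 of the kept WT EtOH and fat-1 PF libraries was left out, and Hoxc8 lost its call without fat-1 PF replicate 3. The difference between clusters was not tested. Hoxb9 (ENSMUSG00000020875, chromosome 11 from 96271457 to 96276595) was at 7.82 to 26.4 CPM (median 15) in PF and at 64.6, 66.1, 57.6, 60.1 and 47.5 CPM in EtOH libraries. The highest PF value was that of WT PF replicate 4 (2.05 ± 0.22, edgeR adjusted p = 0.000359). Hoxb9, Hoxb8, Hoxb6, Hoxb5, Hoxb4 and Hoxb3 are among the 12 largest rises, chosen likewise among genes whose diets did not overlap. Hoxb6 (chromosome 11 from 96292476 to 96301569) rose from a PF median of 11.2 CPM (range 6.55 to 19) to 42.2, 52.1, 36.5, 39.2 and 31.8 CPM (1.90 ± 0.20, edgeR adjusted p = 0.000337). Hoxb8 (chromosome 11 from 96281905 to 96285315), whose upstream sequence is printed above, rose from a PF median of 3.87 CPM (range 3.11 to 7.2) to 15.3, 16.2, 14.7, 15.2 and 14 CPM (1.86 ± 0.19, edgeR adjusted p = 0.000267). Hoxb3, Hoxb4, Hoxb5 and Hoxb7 changed by 1.83, 1.67, 1.92 and 1.34, and Hoxb2, at the other end of the series, by 0.11 ± 0.27 (edgeR adjusted p = 0.776).

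**Figure D4:**
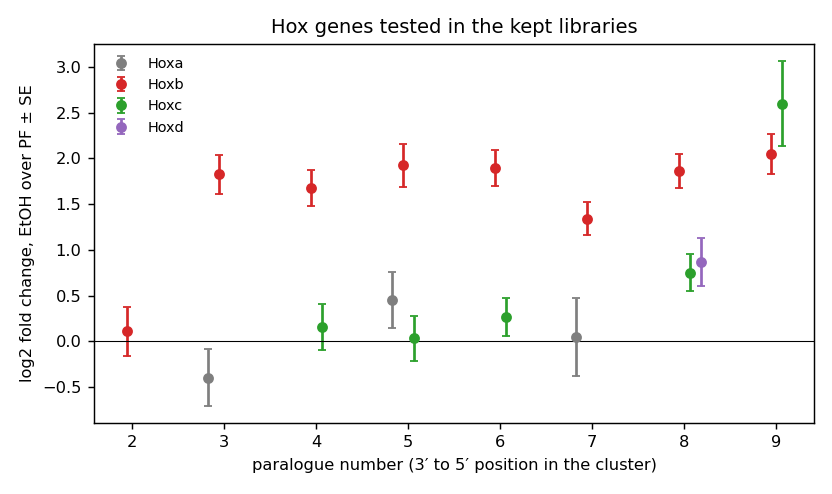
Log2 fold change, EtOH over PF, with its standard error (y axis) of the 17 tested Hox genes by paralogue number (x axis), coloured by cluster. Hoxb genes 3 to 9 lie between 1.34 and 2.05, Hoxb2 at 0.11 and the 3 Hoxa genes between -0.39 and 0.45.

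The lowest of the Hoxc and Hoxd values must be read at their depth. Hoxc9 was at 0 to 0.417 CPM in PF and 0.943 to 1.52 CPM in EtOH libraries (2.60 ± 0.46, edgeR adjusted p = 0.00225), where 3 counts correspond to at most 0.406 CPM in the kept libraries. Hoxb3 shares 50.5% of its 75-base stretches with its antisense partner Hoxb3os when strand is ignored, and none on its own strand, and whether strand was used in the counting is not stated. The score of the Hox list was 2.15 in WT PF replicate 4, 1.46 to 2.13 in the other PF and 2.60 to 2.79 in the EtOH libraries.

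Among single genes that rose, Pla2g4c, a cytosolic phospholipase A2 (chromosome 7 from 13324655 to 13360672), was at 5.81 to 48.4 CPM (median 14.5) in PF and at 1349, 104, 90.3, 108 and 163 CPM in EtOH libraries. WT EtOH replicate 1 stood far above the other EtOH libraries (4.51 ± 0.62, edgeR adjusted p = 0.000846). Without that library the log2 fold change was 3.17 (edgeR adjusted p = 0.0129). Cldn8, a claudin that seals the paracellular path in distal gut, rose from a PF median of 2.92 CPM (range 1.48 to 4.07) to 7.04, 14.9, 9.62, 10.9 and 8.81 CPM (1.90 ± 0.26, edgeR adjusted p = 0.000729). Mptx1, a mucosal pentraxin, had 0.95 to 2.03 CPM against 2.82 to 7.94 CPM (1.95 ± 0.33, edgeR adjusted p = 0.00191), with 10.1% of its 75-base stretches shared with Mptx2. Snhg11, a small nucleolar RNA host gene, had 0.947 to 5.74 CPM against 6.34 to 11.1 CPM (1.66 ± 0.27, edgeR adjusted p = 0.0015). These 4 genes are among the 12 largest rises.

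Epithelial defense genes split in direction. Of 24 tested members 6 were higher and 5 lower (45.8% called, against 28.8% of all genes), with a median of -0.10. Gsdmc2, Gsdmc3 and Gsdmc4, relatives of the pore-forming gasdermins, were higher. Gsdmc3 (chromosome 15 from 63857724 to 63878558) rose from a PF median of 17.2 CPM (range 5.6 to 19) to 97.3, 70.7, 44.3, 41.7 and 28.6 CPM (2.10 ± 0.24, edgeR adjusted p = 0.000419), and Gsdmc2 and Gsdmc4 changed by 1.35 ± 0.20 and 1.41 ± 0.22 (edgeR adjusted p = 0.00107 and 0.00122). These genes share 28.5% to 39.3% of their 75-base stretches with each other or with Gsdmc, so that their counts may not be independent. Gsdmd, the gasdermin that inflammasomes activate, went the other way, from a PF median of 522 CPM (range 365 to 689) to 229, 247, 273, 279 and 303 CPM (-1.04 ± 0.17, edgeR adjusted p = 0.0016). Il18, an inflammasome cytokine of enterocytes, fell from a PF median of 103 CPM (range 48.1 to 116) to 35.6, 27.3, 45.1, 32.1 and 28.6 CPM (-1.49 ± 0.21, edgeR adjusted p = 0.000964). Il33, an alarmin, was at 13.6 to 40.3 CPM (median 31) in PF and at 6.49, 5.52, 8.67, 6.6 and 19.5 CPM in EtOH libraries, which overlapped through WT PF replicate 4 (-1.90 ± 0.34, edgeR adjusted p = 0.00249). Of 22 pattern recognition receptors 5 were higher and none lower in edgeR's test (median 0.48), a share of 22.7% beside 28.8% of all genes. Tlr1 rose from a PF median of 10 CPM (range 8.66 to 11.8) to 16.9, 19.6, 16.5, 14.1 and 36.1 CPM (0.98 ± 0.23, edgeR adjusted p = 0.00953) and Tlr5, the flagellin receptor, from a PF median of 0.714 CPM (range 0.271 to 1.67) to 1.98, 2.12, 2.38, 1.63 and 2.74 CPM (1.46 ± 0.38, edgeR adjusted p = 0.0134). Tlr1 was highest in fat-1 EtOH replicate 5.

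Tuft cells are rare chemosensory cells of the epithelium that signal to type 2 immunity. Of 18 tested tuft cell genes 13 were higher and none lower in edgeR's test (72.2% called, against 28.8% of all genes). The median log2 fold change was 0.94, and for 12 of the 18 the diets did not overlap (against 6.42% of all genes). Dclk1, the usual tuft cell marker (chromosome 3 from 55242364 to 55539068), was at 6.81 to 13.4 CPM (median 11) in PF and at 27.2, 22.2, 25.9, 17.9 and 22.1 CPM in EtOH libraries (1.21 ± 0.18, edgeR adjusted p = 0.00091, exact two-sided permutation p = 0.00216, the smallest value it can give). Pou2f3, the factor that specifies the lineage, rose from a PF median of 1.78 CPM (range 1.48 to 2.19) to 4.87, 3.14, 4.86, 3.51 and 3.08 CPM (1.12 ± 0.21, edgeR adjusted p = 0.00276). Alox5, which starts leukotriene synthesis, rose from a PF median of 2.28 CPM (range 1.48 to 4.05) to 7.49, 6.03, 7.24, 5.57 and 4.7 CPM (1.49 ± 0.25, edgeR adjusted p = 0.00172). WT PF replicate 4 stood among the other PF libraries here, with a list score of 2.76 against 2.44 to 2.90, while the EtOH libraries lay between 3.17 and 3.52. The medians were 0.87 in WT and 1.03 in fat-1 mice. Without fat-1 PF replicate 3 the count was 9, and with all 16 libraries it was 6 higher and 1 lower.

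Goblet cell genes counted 7 higher and 2 lower of 23 (39.1% called, against 28.8% of all genes), with a median of 0.19. Clca1, a secreted protein of mucus (chromosome 3 from 145003817 to 145032776), rose from a PF median of 2271 CPM (range 1979 to 2599) to 4972, 4408, 4629.5, 4443 and 3140 CPM (0.95 ± 0.13, edgeR adjusted p = 0.000773), and Muc2, the gel-forming mucin, from a PF median of 1022 CPM (range 910 to 1249.7) to 1862, 1461, 1579.7, 1715 and 1299 CPM (0.58 ± 0.12, edgeR adjusted p = 0.00439). Both were lowest among the EtOH libraries in fat-1 replicate 5 and did not overlap between the diets. Spdef and Atoh1, factors of the goblet and secretory lineages, changed by 0.04 and 0.10 and did not pass. Of 27 tested Paneth cell and antimicrobial genes 7 were lower and 2 higher (median -0.31), a share of 33.3% near the 28.8% of all genes. The lower ones included Leap2, a liver and gut peptide counted also as proximal (-4.12 ± 0.45, edgeR adjusted p = 0.000359). Another was Defa29, a defensin (-0.95 ± 0.18, edgeR adjusted p = 0.00305) that shares 20% of its stretches with Gm14851, Gm7849 and Gm7861. Without WT EtOH replicate 1 or fat-1 PF replicate 3 the count fell to 3 lower, with 0 and 1 higher. Tight junction genes counted 6 higher and 1 lower of 24 (29.2%, near the 28.8% of all genes, median 0.17), with Tjp1, a scaffold protein, at 0.54 ± 0.11 and Cldn15, a cation pore of the small intestine, at -0.97 ± 0.15 (edgeR adjusted p = 0.00521 and 0.00129).

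Of 23 tested enteroendocrine cell genes 4 were higher and 3 lower (median 0.06), a share of 30.4% beside 28.8% of all genes. Gip, a hormone of the duodenum and jejunum, fell from a PF median of 25.7 CPM (range 8.24 to 41.4) to 1.17, 1.44, 2.86, 4.2 and 1.54 CPM (-3.77 ± 0.43, edgeR adjusted p = 0.000374), and Cck, of the same region, from a PF median of 7.43 CPM (range 4.38 to 11) to 3.97, 3.91, 2.67, 3.26 and 3.08 CPM (-1.22 ± 0.23, edgeR adjusted p = 0.00295). Gcg, which in distal gut yields GLP-1, rose from a PF median of 37.6 CPM (range 27 to 38) to 63.5, 66.1, 69.7, 53.1 and 42.2 CPM (0.79 ± 0.14, edgeR adjusted p = 0.00213). None of the 3 hormones overlapped between the diets. Of the 23 genes 1 was higher and 2 were lower without overlap, beside 6.42% and 7.88% of all genes. Crypt stem cell genes had 2 of 20 members higher (10%, beside 28.8% of all genes), or 1 without WT EtOH replicate 3. Their median was 0.04, with Lgr5 at 0.56 ± 0.13 (edgeR adjusted p = 0.00901). Cell cycle genes had 2 higher and 1 lower of 26 (11.5%, beside 28.8% of all genes, median 0.12). Mki67 was at 0.65 ± 0.16 (edgeR adjusted p = 0.011). The cell cycle count was 12 higher and 1 lower without fat-1 PF replicate 1 and 1 higher without fat-1 PF replicate 3.

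Genes of the muscle coat rose as a whole list. All 20 smooth muscle genes were higher with EtOH (against 13.4% of all genes), with a median log2 fold change of 0.79. The diets did not overlap for 19 of them (against 6.42% of all genes). Myh11, the smooth muscle myosin heavy chain (chromosome 16 from 14194535 to 14291372), was at 242 to 344 CPM (median 279) in PF and at 706, 553, 617, 565 and 437 CPM in EtOH libraries (1.05 ± 0.12, edgeR adjusted p = 0.000374). Cnn1, calponin, rose from a PF median of 90.5 CPM (range 69.1 to 108) to 224, 159, 186, 197 and 150.5 CPM (1.06 ± 0.12, edgeR adjusted p = 0.000374). The medians of WT and fat-1 mice were 0.80 and 0.75, 18 to 20 genes were called without any 1 library, and WT PF replicate 4, with a score of 6.30, lay within the 6.04 to 6.42 of the other PF libraries and below the 6.71 to 7.10 of the EtOH libraries. The summed level of the 20 genes was 2419 to 3206 CPM in PF and 3954 to 5295 CPM in EtOH libraries.

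Fibroblast and collagen genes counted 18 higher and none lower of 26 in edgeR's test (69.2% called, against 28.8% of all genes, median 0.61). Sparcl1, a matrix-associated protein, rose from a PF median of 102 CPM (range 76.7 to 115) to 244, 212, 207, 200 and 145 CPM (1.09 ± 0.12, edgeR adjusted p = 0.000359). Grem1, a BMP antagonist of cells below the crypts, rose from a PF median of 43.8 CPM (range 33.1 to 48) to 76.3, 81.9, 73.6, 79.6 and 72.8 CPM (0.92 ± 0.10, edgeR adjusted p = 0.000342). Enteric neuron and glia genes counted 6 higher and none lower of 18 (median 0.60), a share of 33.3% beside 28.8% of all genes, with Nos1, the neuronal nitric oxide synthase, at 0.541 to 1.46 CPM against 1.54 to 3.57 CPM (1.42 ± 0.27, edgeR adjusted p = 0.00303). General epithelium genes, a list added after the first results, had 3 lower and 1 higher of 15 (26.7% called, near the 28.8% of all genes, median -0.14), with 1 lower and 1 higher without WT PF replicate 2 or either WT EtOH library, and Epcam, present in all epithelial cells, was at 2042 to 2937 CPM (median 2431) in PF and 2254, 2267, 2326, 2588 and 1814 CPM in EtOH libraries (-0.12 ± 0.13, edgeR adjusted p = 0.482). The summed level of the epithelium list was 25254 to 29404 CPM in PF and 18951 to 26412 CPM in EtOH libraries. The part of the balance between layers of the gut wall in the other results was not tested.

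**Figure D5:**
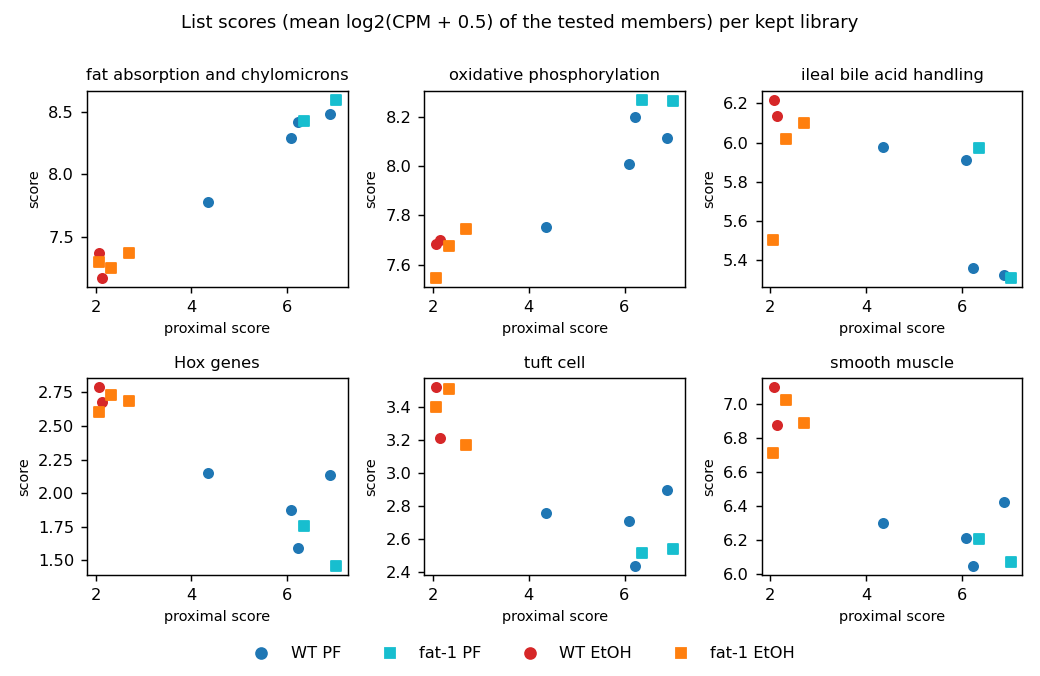
List score, the mean log2(CPM + 0.5) of the tested members (y axis), of 6 lists against the score of the proximal small intestine list (x axis) in the 11 kept libraries. WT PF replicate 4, at 4.35 on the x axis, lies between the diets for fat absorption and oxidative phosphorylation and with the PF libraries for tuft cell and smooth muscle genes.

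Immune cell lists gave few calls. Of 20 B-cell follicle, 24 T cell and intraepithelial lymphocyte, 19 macrophage and dendritic cell and 12 MHC class II genes, 0 were called in edgeR's test, with 1, 2, 0 and 0 at an unadjusted p-value under 0.05. DESeq2 called 1 B-cell follicle and 1 T-cell gene, and limma's voom 2 T-cell and 4 MHC class II genes. The summed level of the B-cell follicle genes was 82 to 239.5 CPM in PF and 43.8 to 1167 CPM in EtOH libraries, where fat-1 EtOH replicate 5 held the highest value. This list had a median log2 fold change of 0.75 over all kept libraries and of 0.02 without fat-1 EtOH replicate 5. Within the genotypes the medians were -0.53 for WT and 2.17 for fat-1 mice. Leaving out 1 library gave at most 2 calls in any of these 4 lists, the T-cell list without fat-1 EtOH replicate 1 among them. Plasma cell genes had 1 of 14 lower (7.14%, beside 28.8% of all genes, median 0.09), or 2 without fat-1 EtOH replicate 1.

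A difference of WT and fat-1 mice in their response to diet was tested as an interaction term. None of 13716 genes was called in edgeR's test (smallest adjusted p = 0.995) and 425 (3.1%) had an unadjusted p-value under 0.05. The smallest unadjusted p-values were those of 5430427O19Rik, Ebi3, which encodes a cytokine subunit, and Hivep3, a zinc finger factor, with log2 interactions (fat-1 minus WT) of 4.37, 4.10 and 1.91 and the same adjusted p-value. DESeq2 and limma's voom also called 0 genes, with 464 and 254 at an unadjusted p-value under 0.05. With 2 to 4 libraries in each group, this does not show that the genotypes responded alike. Tested within a genotype, 1179 genes were called in WT (4 PF and 2 EtOH libraries) and 354 in fat-1 mice (2 PF and 3 EtOH libraries).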

How the data were processed

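Raw read counts per gene, deposited by the authors as whole numbers with 1 column per library, were the starting point. The authors had aligned paired 75-base reads of poly(A) RNA, from libraries that keep strand, to mm10 with tophat2 and counted them with htseq. The strand setting is not given in the sources used here, and the submitters' notes also name bcl2fastq, FastQC 0.10.1 and Cufflinks. Replicates are libraries of separate mice. Counted reads per library ran from 8422645 to 11438539 over all 16 libraries.

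Of 21965 genes in the table, 4158 had no count. CPM were computed here from the deposited counts after TMM scaling of all 16 libraries, and chose the kept libraries. Genes that passed filterByExpr were tested with edgeR 4.0.16 (R 4.3.3) by its quasi-likelihood test with diet and genotype in the model, and p-values were adjusted over all genes tested by Benjamini and Hochberg, with a threshold of 0.05. An interaction term tested the difference between genotypes. Errors of log2 fold changes, called standard errors, are the absolute log2 fold change divided by the square root of edgeR's F statistic. Exact two-sided permutation tests used log2(CPM + 0.5) and can give no p-value below 0.00216. A list score is the mean log2(CPM + 0.5) of its tested members. Ratios of summed counts have exact 95% intervals, and intervals and the floor of 3 counts cover counting error only. In all, 26 genes lacked a GENCODE M21 entry, from which positions (GRCm38) were taken. Shared sequence was counted as 75-base stretches of a gene's transcripts that occur in another gene, and promoters came from RefSeq (GRCm38.p6). Python 3.11.15, pandas 2.3.3, scipy 1.17.1 and matplotlib 3.10.9 were also used.

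The libraries and the 51 gene lists were chosen with earlier results of these data known, and the list of general epithelium was added after the first results. Named genes were the 12 largest rises and 12 largest falls among genes called with at least a 2-fold change, no overlap between the diets and a mean of at least 5 CPM in the higher diet, up to 6 called genes of each list in each direction, and the 3 genes with the smallest interaction p-values. Genes that did not pass the test, among them Fabp6, Fgf15, Epcam, Hnf4a and Cyp2e1, were named after their values were seen, as were the further members of the lists. Alternatives were DESeq2 1.42.0, limma 3.58.1 (voom with sample weights), other scaling and filters, no genotype term, a replicate block, all 16 libraries, each genotype alone, other limits for Slc10a2 and Car1, and leaving out each library. A limit of 10 CPM for Car1 and the proximal score as a covariate were chosen after seeing the data. Some list members are not reported here.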

Additional observations from a re-analysis of the deposited data

Results flagged for a closer look

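Dixon's criterion, which chance alone meets in about 1 of 20 groups, was applied to 500 groups of kept libraries. In 50 of them (10%), 14 of list scores and 36 of gene CPM, 1 library stood apart from the others of its diet. WT PF replicate 4 was that library in 26 of them, fat-1 EtOH replicate 5 in 11 and fat-1 EtOH replicate 2 in 6.

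WT PF replicate 4 held a score of 4.35 for proximal small intestine, 9.51 for brush border digestion and 5.36 for vitamin and nucleoside transport, each the lowest of the PF libraries. Its CPM stood apart for Gata4 (25.7), Enpp7 (306), Lct (78.6), Ugt2a3 (13.5), Apoa4 (1708), Gimd1 (16.2), Creb3l3 (247), Apoc3 (52.4), Asah2 (233), Acot12 (4.49), Rdh7 (20.6) and Slc23a1 (3.76). The same held for Aqp3 (3.55), Soat2 (133), Nr1i3 (7.3), Khk (173), Enpp3 (18.4), Col6a3 (22.8), Il33 (13.6), Cyp2c65 (40.6), Slc28a1 (3.34), Gclm (82.5) and Chga (52.1).

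Fat-1 EtOH replicate 5 stood apart from the EtOH libraries in its scores for ileal bile acid handling (5.50), plasma cells (5.21), MHC class II (7.46), pattern recognition receptors (4.24), endothelium (3.86), stomach (1.49) and general epithelium (9.81), and in the CPM of Clca1 (3140), Snap25 (4.19), Tjp1 (125) and Dpp4 (1066). Fat-1 EtOH replicate 2 did so in the scores of sugar transport and gluconeogenesis (6.89), cytochrome P450 (4.23) and epithelial defense (4.93), and in Retnlb (1.2), Cyp2c65 (69.2) and Ada (89.5). The other values were the stomach score (1.41) and Cyp3a44 (2.72) of WT PF replicate 2, Dnase1 (1.17) and Pla2g4c (1349) of WT EtOH replicate 1, Naip6 (432) of WT EtOH replicate 3, and Ces1g (0.422) and Pdk4 (26.4) of fat-1 PF replicate 1.

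Among the libraries left out, Car1 reached 4062 CPM in WT EtOH replicate 2, 11090 CPM in fat-1 EtOH replicate 3 and 11996 CPM in fat-1 EtOH replicate 4, against 0 to 58.7 CPM in the kept PF libraries.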

How the results depend on the processing

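Of the alternatives named under processing, DESeq2 called 4173 genes, limma's voom 5061, DESeq2's size factors 3959, upper-quartile scaling 4054, at least 1 count in any library 3650 and no genotype term 3894, against 3945. Larger moves came from the choice of libraries. All 16 libraries gave 5318 calls and 1095 with at least 2-fold change against 492, WT alone 1179 and 188, fat-1 alone 354 and 229, and Car1 below 10 CPM 2222 and 394, while at least 10 counts in every library gave 323 with 2-fold change. The proximal score as a covariate gave 0 and 0. Leaving out any 1 library gave 2598 (without fat-1 PF replicate 3) to 4263 calls (without WT PF replicate 4), and 418 to 609 with 2-fold change. Limits of 100 CPM for Slc10a2 or Car1 kept the same libraries. Upper-quartile scaling moved the median of all genes to 0.13 from 0.05.

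Genes named in the text lost their calls, with the sign kept, in 113 cases with fat-1 alone and 104 with WT alone. The number was 23 with all 16 libraries and 29 with Car1 below 10 CPM. With all 16 libraries Acaa1b (1.14), Pdk4 (0.84) and Cyp2c65 (0.26) also lost their calls, and their sign turned. Genes that had not passed changed sign as follows. With all 16 libraries Aldh2 was at 0.065, Anpep at -0.24 and Cdx1 at 0.13. With fat-1 alone Fgf15 was at -1.25, Anpep at -0.00027 and Hnf4a at 0.042. With WT alone Atoh1 was at -0.033 and Cyp2e1 at -0.28, and with Car1 below 10 CPM Cyp2e1 was at -0.38. Upper-quartile scaling put Aldh2 at 0.0022 and Hnf4a at 0.013. Without 1 library, Spdef ranged from -0.0093 to 0.079, Atoh1 from -0.0015 to 0.20, Hoxb2 from -0.0084 to 0.27, Hnf4a from -0.14 to 0.0013 and Cyp2e1 from -0.20 to 0.89. Among genes that had not passed, Fgf15 (3.09) and Fabp6 (1.02) passed in limma's voom, Fabp6 also with the replicate block (1.25), and Cdx2 and Dpp4 in both DESeq2 and voom. Dpp4 also passed with the replicate block and without the genotype term. The causes were not tested.

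With the replicate block 4043 genes were called, 597 of them 2-fold, 7 named genes lost their call and Hnf4a was at 0.0055. Deviations of samples of the same number had a mean correlation of -0.026 over 10 pairs, from -0.265 to 0.139, against 0.0089 over 34 other pairs. In groups of 2 kept libraries the deviations from the group mean mirror each other. These means therefore cannot show whether the numbers pair samples.

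With 2 to 4 libraries in each group, 8422645 or more counted reads per library and 3 counts worth up to 0.406 CPM in the kept libraries, values of genes near that level rest on few reads.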

Other observations

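Of 19 circadian clock genes 2 were higher and 5 lower with EtOH in edgeR's test (36.8%, beside 28.8% of all genes), with a median log2 fold change of -0.07. Arntl, which encodes the clock activator BMAL1, was at 10.6 to 17.2 CPM (median 13.2) in PF and at 18, 24.1, 21.3, 25.6 and 20.6 CPM in EtOH libraries (0.63 ± 0.14, edgeR adjusted p = 0.00712). Rora, a receptor that drives Arntl, was at 3.49 to 6.57 CPM (median 6.01) and at 7.94, 9.6, 9.14, 6.6 and 10.1 CPM (0.75 ± 0.17, edgeR adjusted p = 0.00764). For both the EtOH libraries lay above all PF libraries. The number of lower genes was 1 without fat-1 PF replicate 3 or WT EtOH replicate 3 and 2 without fat-1 PF replicate 1. Immediate early genes counted 2 higher and 2 lower of 22 (18.2%, median 0.13), with none higher without WT EtOH replicate 1 and none lower without WT EtOH replicate 3. The times at which tissue was taken were not analysed here.

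Interferon-stimulated genes had 1 higher and 2 lower of 36 (8.33%, beside 28.8% of all genes, median 0.02), or 3 and 3 without WT PF replicate 4. Rsad2, the antiviral protein viperin, was at 5.26 to 9.6 CPM (median 6.08) in PF and 11, 13.2, 13.3, 14.7 and 11.6 CPM in EtOH libraries (0.93 ± 0.17, edgeR adjusted p = 0.0027). Ifi27l2b went the other way, from a PF median of 442 CPM (range 216 to 499) to 139.5, 134, 178, 240.4 and 151 CPM (-1.33 ± 0.23, edgeR adjusted p = 0.00223). Of 28 ribosomal protein genes 2 were lower (7.14%, beside 28.8% of all genes, median -0.14). When any 1 library was left out, 0 to 6 were called. Fits without WT EtOH replicate 1 or fat-1 PF replicate 3 and without fat-1 PF replicate 1 stood at the ends of that range.

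Markers of other cells and organs that bulk tissue can hold gave few calls. With all kept libraries, no list below exceeded the 28.8% called over all genes. Endothelium had 2 of 18 higher (median 0.32), or none without fat-1 PF replicate 3 and 1 without either WT EtOH library, and its summed level was 127 to 166 CPM in PF and 136 to 316 CPM in EtOH libraries. Adipocyte genes had 1 higher and 1 lower of 16 (median 0.91). Without WT PF replicate 4 they had 7 higher and 1 lower, without WT EtOH replicate 3 they had 4 and 1, without fat-1 EtOH replicate 1 they had 3 and 1, and without fat-1 PF replicate 3 they had 1 higher. Exocrine pancreas had 1 of 4 tested genes lower (median -0.24), or 2 without WT PF replicate 4 and none without fat-1 PF replicate 3 or either WT EtOH library. Of 7 red blood cell genes and the 1 stomach gene tested, 0 were called in edgeR's test, with 0 at an unadjusted p-value under 0.05 and 0 calls in DESeq2. Limma's voom called 1 red blood cell gene and no stomach gene. Their medians were -0.49 and -0.33, and 1 red blood cell gene was lower without fat-1 EtOH replicate 5.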
